A study of Mus musculus with 27 samples.

Results

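The 74 genes described here encode nuclear subunits of the mitochondrial respiratory chain complexes I, II and III and of the ATP synthase (complex V), with a few of their assembly factors. They were taken by symbol: every gene whose name starts with Nduf, Uqcr or Atp5, together with Sdha, Sdhb, Sdhc and Sdhd. All 74 were present in the bulk table of 24025 genes and in the single-cell table of 19020 genes. By role they comprised 7 core and 29 accessory subunits of complex I, 7 Ndufaf assembly factors, the pair Ndufa4 and Ndufa4l2, 4 subunits of complex II and 8 of complex III. Complex V contributed 5 genes of the catalytic F1 head, 3 genes for the c subunit and 7 genes of the stalk and membrane sector. The pair Atp5s and Atp5sl, which RefSeq names Dmac2l and Dmac2, entered by symbol and was kept apart.

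The study deleted parts of Hand2os1 (labelled Hand2as), a long noncoding RNA gene beside the heart transcription factor gene Hand2, in C57BL/6 mice. In allele F the whole gene is removed, and in allele D its 3′ distal portion. Bulk polyA RNA came from whole hearts at embryonic stage E11.5 of Hand2as F/+ (n = 3) and F/F (n = 3) embryos, from ventricles at E16.5 of F/+ (n = 3) and F/F (n = 3) embryos, and from cardiomyocytes of 8-week-old +/+ (n = 5), D/+ (n = 2) and D/D (n = 6) mice. All embryonic bulk controls therefore carried 1 copy of allele F, and the labels give no age-matched wild type for them. A single-cell library was made for each of +/+ and F/F hearts at E11.5, each pooling sorted living cells of 6 hearts, so the comparison of these libraries has no replicates. The labels do not say how many animals went into a bulk sample, and the p-values below measure the spread between these samples.

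Complex I takes electrons from NADH and complex II, which is also the succinate dehydrogenase of the tricarboxylic acid cycle, takes them from succinate. Both pass them through ubiquinone to complex III, which reduces cytochrome c, and the proton gradient built by complexes I and III, with complex IV, drives ATP synthesis by complex V. Adult heart muscle depends on this chain for most of its ATP, and cardiac mitochondria grow in number and in cristae from the embryo to the adult. Nuclear genes for the chain are known targets of the transcription factors NRF1, GABP (an ETS factor), YY1 and the oestrogen-related receptors (ERR), which makes their upstream sequences a natural thing to show beside their levels.

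The 150 bases before the annotated start are printed for the 3 genes of the c subunit, which encode the same mature protein and differed in their course over development, and for Atp5k and Sdha, to which the genotype results return. The sequences are RefSeq's for GRCm38.p6, 5′ to 3′ along the gene's strand, in lower case with motif matches in capitals.
Atp5g1, chr11:96075632-96075781, minus strand: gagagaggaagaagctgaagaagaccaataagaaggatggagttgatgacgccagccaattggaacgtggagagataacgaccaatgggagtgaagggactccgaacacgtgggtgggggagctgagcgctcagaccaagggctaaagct
Atp5g2, chr15:102671048-102671197, minus strand: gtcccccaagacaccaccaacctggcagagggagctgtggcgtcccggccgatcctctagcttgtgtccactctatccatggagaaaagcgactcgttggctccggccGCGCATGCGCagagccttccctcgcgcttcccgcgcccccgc
Atp5g3, chr2:73911327-73911476, minus strand: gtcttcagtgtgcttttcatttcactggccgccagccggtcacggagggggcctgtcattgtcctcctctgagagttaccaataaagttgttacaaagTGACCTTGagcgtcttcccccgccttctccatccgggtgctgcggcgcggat
Atp5k, chr5:108434400-108434549, minus strand: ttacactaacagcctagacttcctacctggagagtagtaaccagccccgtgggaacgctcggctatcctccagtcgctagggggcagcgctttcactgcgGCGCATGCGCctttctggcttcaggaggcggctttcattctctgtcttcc
Sdha, chr13:74350241-74350390, minus strand: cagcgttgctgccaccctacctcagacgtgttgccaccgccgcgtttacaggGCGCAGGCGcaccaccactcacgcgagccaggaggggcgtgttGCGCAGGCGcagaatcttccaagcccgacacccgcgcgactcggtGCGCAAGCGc

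The motifs searched on both strands were GCGCANGCG for NRF1, CCGGAAG for ETS, AAGATGGCG for YY1 and CAAGGTCA for ERR, and none of these spellings contains another. Atp5g2 and Atp5k each held an NRF1 match that reads on both strands, 1 base apart, Sdha held 3 NRF1 matches, Atp5g3 held an ERR match on the other strand, and Atp5g1 held none of the 4. Over the 250 bases before the start, an NRF1 match was found in 13 of the 63 members with a promoter in the table (20.6%) against 5.33% of all 27025 promoters. An ETS match was found in 10 (15.9%, against 7.05%), an ERR match in 3 (4.76%, against 1.31%) and a YY1 match in 0 (against 0.607%). At least 1 of the 4 motifs was found in 21 members (33.3%, against 13.2%). These are matches of letters in a fixed window and describe the sequences only. The starts are RefSeq's: for Atp5g2, GENCODE M21 places the gene's 5′ end at chr15:102672352, so the stretch printed lies inside the gene as annotated there.

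The bulk values are FPKM (fragments per kilobase of transcript, scaled to library size), inferred from the values, and summed to between 334194 and 586795 per library, with 9495 to 11641 genes at 1 FPKM or more. Haemoglobin genes took 10.4% to 29.7% of the summed FPKM in the E11.5 hearts and 0.651% to 2.42% in the E16.5 ventricles. Gapdh, a glycolytic enzyme that all cells use, was listed at 0.12 to 5.09 FPKM in the 12 embryonic libraries and at 980.45 to 2528.57 FPKM at 8 weeks, so a low value in the embryonic part of the table does not show a low level. The deleted gene (LOC102636514 in this table, Hand2os1 by RefSeq identifier) was listed at 0 in every library at E11.5, so it checks no label there, at 0.37 to 1.4 FPKM in F/+ and 0 in F/F at E16.5, at 6.9 to 13.48 FPKM in 4 of the 5 +/+ cardiomyocyte libraries, at 5.25 and 6.17 in D/+ and at 0 to 2.67 in D/D. It was listed at 0 in the library labelled +/+ replicate 5, against its label, and that library and D/D replicate 6 stood apart from the rest at 8 weeks. The single-cell libraries held 2563 (+/+) and 3469 (F/F) barcodes with medians of 13369 and 13403 unique molecular identifiers (UMIs), and 18 barcode sequences occurred in both. The deleted gene (Gm28063 there) had 1 UMI in the library labelled +/+ and 9 in the library labelled F/F, so these labels rest on the submitters' word.

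The summed level of the 74 genes was higher at each later stage in the control libraries. The sum was 12812.9, 13003.8 and 14232.3 FPKM in the F/+ hearts at E11.5, 21787.1 to 23601.4 FPKM in the F/+ ventricles at E16.5, and 37048.7 to 46371.7 FPKM in the +/+ cardiomyocytes at 8 weeks, with no overlap between stages. As a share of each library's summed FPKM it was 3.18% ± 0.249 (SD, n = 3), 6.72% ± 0.225 (SD, n = 3) and 9.31% ± 0.349 (SD, n = 5). Stage, tissue (whole heart, ventricle, isolated cardiomyocytes) and, for the adult samples, genotype change together and cannot be told apart. Gapdh was listed at 0.12 to 5.09 FPKM in the embryonic libraries and at 980.45 to 2528.57 FPKM at 8 weeks. Whether the embryonic and adult values were made in the same way is not known. Such a difference could not be told apart from stage either. In bulk samples, a change in the number of cells of a type and a change in RNA per cell cannot be told apart either, and the summed FPKM of 11 cardiomyocyte markers was higher alongside, going from 9130.63 to 11237.6 at E11.5 through 19798 to 22550.6 at E16.5 to 40351.8 to 49394.5 at 8 weeks.

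**Figure D1:**
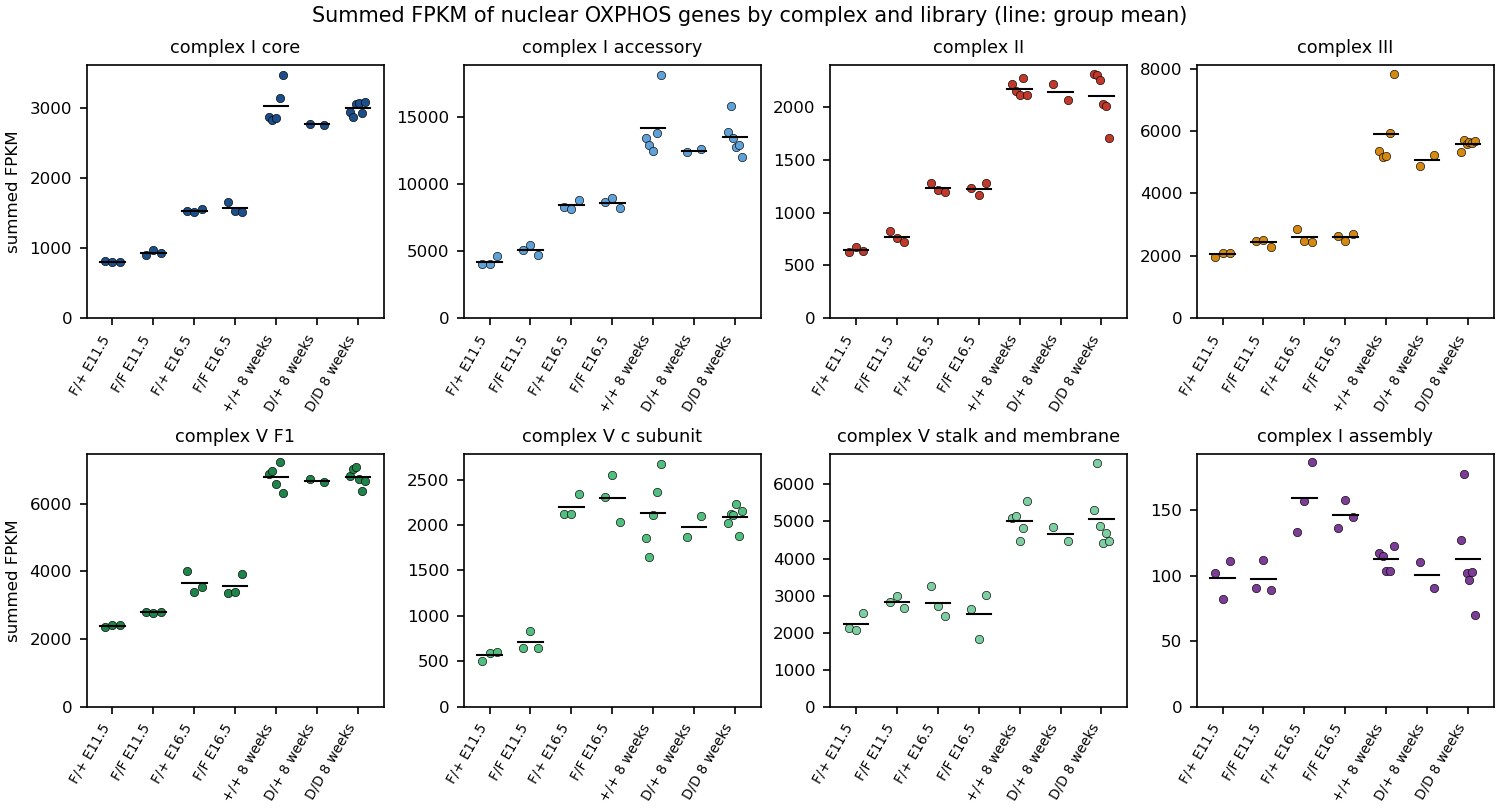
Summed FPKM (y axis, linear from 0) of the members of each complex group in every bulk library; points are single libraries, grouped by stage and genotype along the x axis, and lines are group means. The core of complex I, complexes II and III and the F1 head were higher at each later stage in the controls (F/+ and +/+), whereas the c subunit sum was higher at E16.5 than at E11.5 and overlapped the E16.5 values at 8 weeks.

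Between E11.5 and E16.5, 46 of the 74 genes rose in the F/+ controls (limma on log2(FPKM + 1), adjusted p under 0.05 over all genes tested), where 16.3% of all 11485 genes tested rose. A further 8 fell, where 28.3% of all genes fell. The members' median log2 difference was 0.83, against -0.15 over all genes. The groups of 3 libraries did not overlap for 47 members that were higher and 9 that were lower. No share of all genes is given for these counts, so they are not read as a result. All 7 core subunits of complex I were higher and 6 passed the test. Ndufv1, which carries the NADH site, was 151.19, 160.88 and 145.62 FPKM at E11.5 and 328.89, 313.17 and 329.14 at E16.5, a log2 difference of 1.08 ± 0.13 (SE; limma adjusted p = 3.11e-05). Ndufs1, which holds iron-sulfur clusters, was higher by 0.83 ± 0.40 and did not pass (limma adjusted p = 0.105). Its values were 29.34 to 32.21 FPKM at E11.5 and 48.98 to 63.02 at E16.5. The stage fit also held the +/+ cardiomyocyte libraries, where Ndufs1 was 38.64 to 148.77 FPKM. Each SE and limma p-value of a stage step therefore includes the spread of those adult libraries too.

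In complex II, Sdhc, a membrane anchor, rose by 1.38 ± 0.12 (limma adjusted p = 3.95e-06), from 195.85 to 207.91 FPKM at E11.5 to 524.11 to 528.21 at E16.5. Sdha, the flavoprotein, and Sdhb, the iron-sulfur subunit, also rose (0.81 and 0.83), while Sdhd, the other anchor, differed by 0.12 ± 0.17 and did not pass. In complex III, Uqcrc1, a core protein, and Uqcrfs1, the Rieske iron-sulfur protein, rose by 1.42 and 1.25, and Uqcrc2, the other core protein, was 0.80 ± 0.61 lower without passing the test (limma adjusted p = 0.313). The F1 head was less even: Atp5a1 and Atp5b, the catalytic alpha and beta subunits, rose by 0.49 and 0.78 and Atp5d, the delta subunit, by 1.05. Atp5c1, the gamma shaft, and Atp5e, the epsilon subunit, differed by -0.09 and 0.07 and did not pass.

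The genes of the c subunit, which form the rotating ring of the ATP synthase, summed to 568 ± 50.9 FPKM (SD, n = 3) at E11.5 and 2198 ± 124 (SD, n = 3) at E16.5. Atp5g3 was 402.38, 440.68 and 503.64 FPKM at E11.5 and 1797.15, 1784.63 and 1933.99 at E16.5, a rise of 2.04 ± 0.26 on the log2 scale (limma adjusted p = 5.62e-05). Atp5g1 rose by 1.60 ± 0.17 (limma adjusted p = 1.59e-05), from 100.54 to 149.14 FPKM to 329.74 to 406.82. Among the accessory subunits of complex I, the largest rises above 5 FPKM were those of Ndufa12 (3.86 ± 0.34) and Ndufa1 (2.82 ± 0.32), both small subunits. Ndufa12 was 23.75, 20.12 and 21.21 FPKM at E11.5 and 265.46, 299.29 and 446.23 at E16.5. A limit on its bulk values is given below, with the genes that were low in bulk. Ndufb11 and Ndufb5, subunits of the membrane arm, rose by 1.94 and 1.54. Ndufa4l2, a paralogue of Ndufa4, rose by 2.79 ± 0.45 (limma adjusted p = 0.000331), from 2.08 to 4.54 FPKM to 26.65 to 29.16. Of the 7 assembly factors, 5 rose, among them Ndufaf4 (1.74) and Ndufaf1 (1.19).

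From E16.5 to the adult cardiomyocytes, 43 genes rose, where 23.3% of all genes rose, and 10 fell, where 44.1% of all genes fell. The members' median log2 difference was 0.68, against -0.36 over all genes. This split depended on the scale: 54 of 56 members called were higher under median-ratio scaling, 51 of 54 under upper-quartile scaling and 36 of 54 without haemoglobin, where the median of all genes was 0.03, -0.07 and -0.66. Non-overlapping values were found for 42 higher and 6 lower members, again with no share of all genes given, so these counts are not read as a result either. Ndufs7, a core subunit of complex I near the ubiquinone site, rose by 1.66 ± 0.17. Sdhb rose by 1.29 ± 0.11 (limma adjusted p = 8.13e-07), from 377.16 to 415.11 FPKM in the E16.5 controls to 899.64, 958.27 and 1032.72 (lowest, median and highest of the +/+ cardiomyocytes). In the F1 head, Atp5a1, Atp5b, Atp5c1 and Atp5e rose by 1.15, 0.79, 1.54 and 1.15, and Atp5d differed by 0.27 ± 0.20. Accessory subunits of complex I with small p included Ndufa10 (1.79 ± 0.13), Ndufv3 (1.71 ± 0.15), Ndufa8 (1.62 ± 0.18) and Ndufa5 (3.13 ± 0.26).

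The 10 genes that fell into the adult were 4 of the 7 Ndufaf assembly factors and 6 other members. The assembly factors Ndufaf1, Ndufaf2, Ndufaf4 and Ndufaf5, which act while complex I is built and are not part of the finished enzyme, fell by 0.82, 0.98, 1.18 and 0.79 on the log2 scale (limma adjusted p = 0.000738 to 0.0297), and Ndufaf3 rose by 0.59. The other lower calls were Ndufb6 (-1.49 ± 0.20), Ndufc2 (-0.65 ± 0.14), Ndufa12 (-1.03 ± 0.31), Uqcrb (-1.21 ± 0.43), Atp5sl (-0.46 ± 0.19) and Atp5g3 (-0.70 ± 0.23). The sum of the 7 assembly factors went from 159 ± 26.8 FPKM (SD, n = 3) at E16.5 to 113 ± 8.61 (SD, n = 5) at 8 weeks, while the sum of the 7 core subunits went from 1533 ± 25.1 to 3035 ± 278. On the median-ratio scale the assembly factors summed to 138 ± 21.9 and 138 ± 16.7, so the lower sum was one of the deposited scale. Only the lower calls of Ndufaf4 and Ndufb6 held in all 19 alternatives run for each gene. Those of Ndufaf1, Ndufaf2, Ndufaf5, Ndufc2, Ndufa12, Uqcrb and Atp5g3 kept their direction but did not pass under median-ratio scaling of the libraries, where the Atp5sl difference became 0.02.

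The c subunit genes parted at this step. Atp5g1 rose again, by 1.28 ± 0.15 (limma adjusted p = 1.08e-05), to a lowest, median and highest of 794.8, 844.95 and 1003.91 FPKM in the +/+ cardiomyocytes. Atp5g3 was lower, at 798.77, 1142.86 and 1825.56 FPKM, with the highest adult library inside the E16.5 range. Its call (limma adjusted p = 0.016) was lost under median-ratio scaling, under upper-quartile scaling and without F/+ E16.5 replicate 3. Atp5g2 was listed at 0 in 5 of the 6 embryonic controls and at 0.18 FPKM in the other, and at 11.62, 84.29 and 128.21 FPKM in the adults. The sum of the 3 genes was 2198 ± 124 FPKM (SD, n = 3) at E16.5 and 2132 ± 404 (SD, n = 5) at 8 weeks in the deposited values, in which Atp5g2 added almost nothing at E16.5. The order of the stages depended on the scale: the sums were 1913 ± 89.4 and 2624 ± 637 with median-ratio scaling and 2611 ± 141 and 1938 ± 262 without haemoglobin.

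Over both steps, 20 members rose at each (4.07% of all genes tested did), 17 rose at the first and were not called at the second (4.36% of all genes), and 15 were not called at the first and rose at the second (11.4%). A further 9 rose and then fell (7.85% of all genes), and 8 fell and then rose (7.81%). Of the remaining 5, Ndufc2 fell at the second step alone (25.5% of all genes did) and Atp5s, Ndufaf6, Ndufaf7 and Ndufs5 were called at neither (18.5%). No member fell at the first step alone (9.76% of all genes did) or at both (10.8%). The 8 that fell and then rose were Ndufa4, Uqcrh, Ndufb3, Ndufa3, Ndufs4, Uqcr10, Ndufa9 and Atp5j2. The first fall of Atp5j2 did not pass under median-ratio or upper-quartile scaling, and that of Ndufa9 did not pass without F/+ E11.5 replicate 3 or without F/+ E16.5 replicate 3. Ndufa4, a small subunit once assigned to complex I and now placed with complex IV, was 290.7, 262.85 and 412.26 FPKM in the controls at E11.5 and 15.71, 17.11 and 16.28 at E16.5. In the +/+ cardiomyocytes it was 106.77, 1330.78 and 1749.63 FPKM (lowest, median, highest), the lowest being replicate 5. The log2 differences were -4.19 ± 0.80 and 5.62 ± 0.71 (limma adjusted p = 0.00108 and 1.83e-05). Uqcrh, the hinge protein of complex III, went from 497.87 to 617.41 FPKM to 37.26 to 84.67 and then to 1031.68, 1373.76 and 2032.73, with differences of -3.38 ± 0.30 and 4.69 ± 0.27. Ndufs4, a complex I subunit whose loss causes Leigh-like disease in mice, went from 13.79 to 17.81 FPKM to 1.86 to 2.90 and then to 21.6, 25.34 and 26.62, with differences of -2.26 ± 0.17 and 2.91 ± 0.15.

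Other genes of mitochondrial energy metabolism were read beside these, with the same shares of all genes as background (16.3% rose and 28.3% fell at the first step, 23.3% rose and 44.1% fell at the second). Of 16 nuclear complex IV subunits tested, 8 rose and 4 fell between E11.5 and E16.5 and 11 rose and 2 fell into the adult. Of 13 genes of the tricarboxylic acid cycle, 8 rose and 1 fell and then 10 rose and 1 fell. Of 77 mitochondrial ribosomal protein genes, 18 rose and 22 fell at the first step, with a median of -0.02, and 30 rose and 14 fell at the second, with a median of 0.23.

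Some low values in the embryonic libraries were at odds with the single cells. Atp5g2 was listed at 0 in all 6 libraries at E11.5, yet 24126 of its UMIs were counted in the +/+ single cells of the same stage, or 651 CPM (UMIs of a gene scaled to a fixed total; 95% Poisson interval 643 to 660). Ndufs5 and Ndufb4 were likewise listed at 0 in all 6 and stood at 298 and 251 CPM. Uqcrb and Atp5l reached at most 5.27 and 5.14 FPKM and stood at 660 and 815 CPM. Of the 74 members, these 5 were the ones with a median under 1 FPKM over the E11.5 libraries. They share sequence with other genes: 84.8% of the 50-base words of the Atp5l transcripts, 43.4% for Uqcrb, 37.0% for Ndufb4, 31.1% for Ndufs5 and 14.8% for Atp5g2 also occur in transcripts of another gene. The median over the other 69 members was 0, but some of these shared much as well and were not near 0 FPKM at E11.5. Among them were Atp5h (47.9%, 59.83 to 135.42 FPKM), Ndufs3 (39.7%, 36.52 to 56.07), Atp5f1 (38.7%, 39.49 to 81.48) and Atp5o (34.0%, 336.91 to 435.81). In the +/+ cells Atp5h stood at 820 CPM, Ndufs3 at 173, Atp5f1 at 552 and Atp5o at 742. Bulk values above 0 therefore do not show that the bulk levels of these genes matched the cells. Whether shared sequence accounts for the low values was not tested. For these 5 genes the stage differences, among them those of Ndufb4 (5.37 ± 0.21) and Atp5g2 (5.90 ± 0.59) into the adult and of Uqcrb (4.98 ± 0.48) into E16.5, are those of the deposited values only. Ndufa12 shared 26.2% of its words and was listed at 20.12 to 46.48 FPKM at E11.5, against 343 CPM in the +/+ cells. Its stage and genotype differences are also those of the deposited values only.

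**Figure D2:**
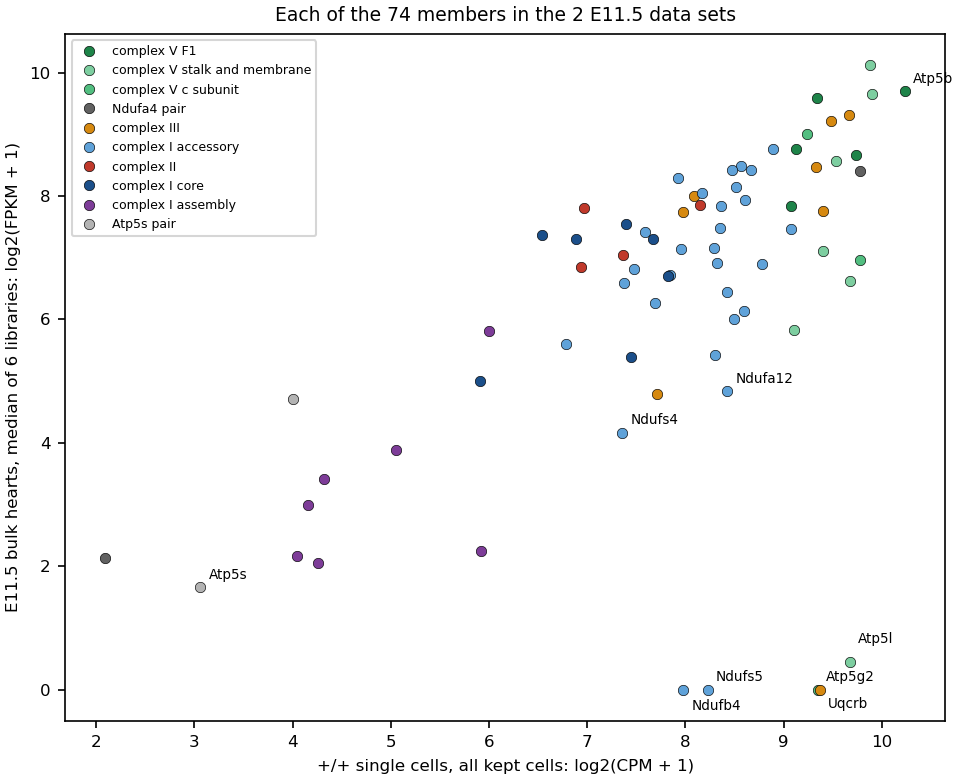
Log2(CPM + 1) in the +/+ single-cell library (x axis) against the log2(FPKM + 1) of the median over the 6 E11.5 bulk libraries (y axis) for the 74 members, 1 point per gene. Atp5g2, Atp5l, Ndufb4, Ndufs5 and Uqcrb lie at the bottom of the plot with 251 to 815 CPM in the cells.

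In the E11.5 hearts, none of the 71 members tested passed the adjusted test between F/F and F/+ (limma, 0 of 71; 0.0087% of all 11491 genes tested passed). Atp5g2, Ndufb4 and Ndufs5 were too low to be tested. The members leaned to one side: 61 of 71 were higher in F/F in the deposited values, with a median log2 difference of 0.23 against 0.02 over all genes, of which 52.4% were higher; on a scale without haemoglobin, given below, the sign of the median turned. At an unadjusted p under 0.05, 12 members were counted, all higher, where 4.37% of all genes were counted. For 19 members every F/F value lay above every F/+ value, where this held for 4.93% of all genes. For 0 members every F/F value lay below, a count for which no share of all genes is given and which is not read as a result.

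The sums of the enzymes were higher in F/F in the deposited values and those of the assembly factors overlapped. The core of complex I summed to 795.3 to 812.96 FPKM in F/+ and 897.96 to 969.81 in F/F, complex II to 628.36 to 670.54 and 726.23 to 823.7, and complex III to 1958.29 to 2088.48 and 2281.43 to 2518.62. The F1 head summed to 2353.36 to 2413.54 FPKM in F/+ and 2768.08 to 2801.98 in F/F, and the c subunit genes to 509.66 to 604.18 and 642.62 to 836.05. None of these ranges overlapped, whereas the 7 assembly factors summed to 82.04 to 111.15 and 89.41 to 111.85 FPKM, with 3 of 7 higher and a median of -0.07. The sum over all members was 12812.9, 13003.8 and 14232.3 FPKM in F/+ and 16063.3, 16771.4 and 15162.3 in F/F.

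This direction depended on the scale of the libraries, whose summed FPKM was 376930 to 457462 in F/+ and 442355 to 586795 in F/F. As a share of each library's own summed FPKM, the members took 2.96% to 3.45% in F/+ and 2.86% to 3.63% in F/F, which overlap. When haemoglobin genes were left out and the libraries were set to a common sum, 12 of 71 members were higher and their median became -0.13, while the median of all genes moved from 0.02 to -0.31, so that the members lay above the median of all genes on both scales. Other groups of genes leaned the same way on the deposited scale: 15 of 16 nuclear complex IV subunits (median 0.33), 12 of 13 genes of the tricarboxylic acid cycle (0.14) and 63 of 76 mitochondrial ribosomal protein genes (0.17) were higher in F/F, with 0 of each called. Of the marker lists, 9 of 11 cardiomyocyte markers were higher in F/F (median 0.23), with summed levels that overlapped (9130.63 to 11237.6 FPKM in F/+ against 10620 to 13370.1 in F/F), and 9 of 10 endothelial and endocardial markers, with sums that did not (333.93 to 373.83 against 402.41 to 430.08). All 5 megakaryocyte markers (median 0.25) and all 5 hepatocyte markers (median 0.98) were also higher, the latter with sums of 0.6 to 168.22 FPKM in F/+ and 7.53 to 360.97 in F/F. Of the mesenchymal markers 2 of 10 were higher (median -0.18; sums of 484.25 to 592.62 against 426.31 to 494.5), and of the immune markers 2 of 7 (median -0.21). The part of these in the members' lean was not tested.

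Single members with the smallest p were accessory subunits. Ndufa12 was 23.75, 20.12 and 21.21 FPKM in F/+ and 31.21, 46.48 and 44.55 in F/F, a log2 difference of 0.86 ± 0.20 (limma adjusted p = 0.774), with no overlap between the groups. The limit on its bulk values given above holds here as well. Ndufc1 and Ndufb2, small subunits of the membrane arm, were higher by 0.63 ± 0.21 and 0.61 ± 0.19 and Ndufa3 by 0.49 ± 0.15. Atp5k, the e subunit that holds ATP synthase dimers together, was 584.86, 590.68 and 762.57 FPKM in F/+ and 852.47, 988.66 and 899.55 in F/F, a difference of 0.51 ± 0.16. At the other end, Ndufb3, also of the membrane arm, was 100.81, 93.57 and 116.62 FPKM in F/+ and 73.79, 96.56 and 70.86 in F/F (-0.37 ± 0.17), which overlap. Ndufaf6, an assembly factor, and Ndufs1 differed by -0.21 ± 0.44 and -0.10 ± 0.25.

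**Figure D3:**
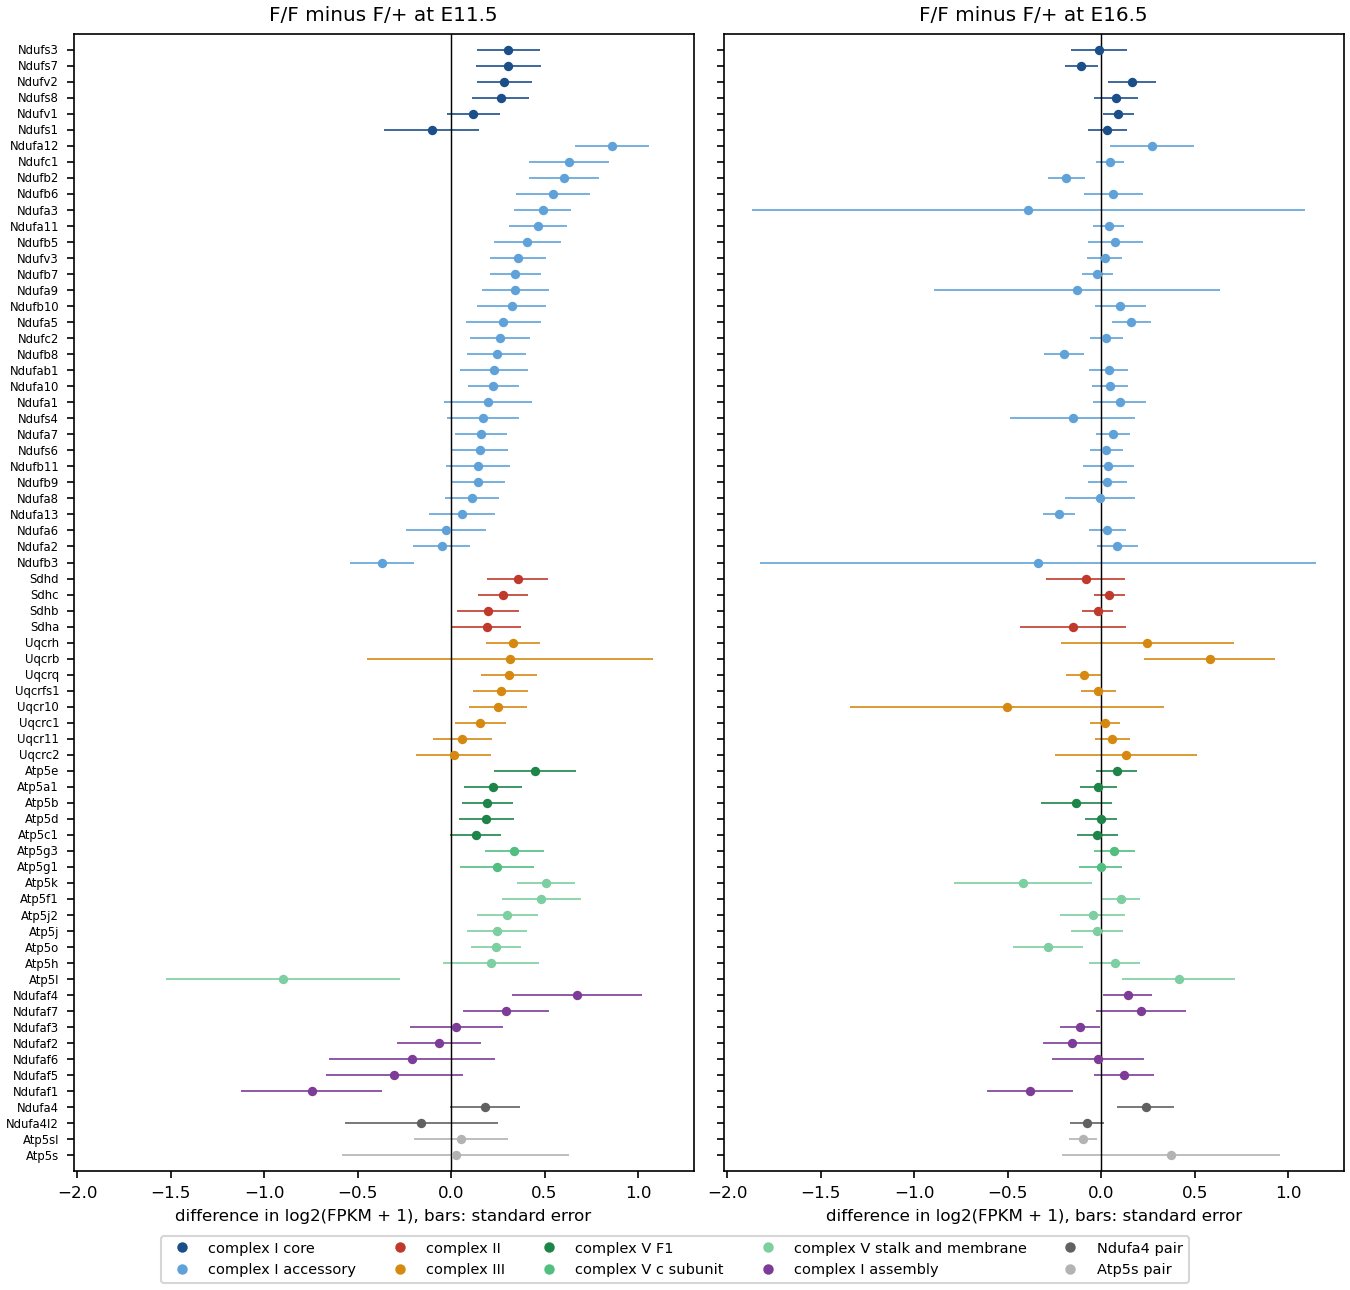
Log2 difference F/F minus F/+ of each tested member but 1 (x axis, log2 of FPKM + 1; bars are standard errors from limma), by complex, in the E11.5 hearts and in the E16.5 ventricles. At E11.5 most points lie to the right of 0 (median 0.23); at E16.5 they centre near 0 (median 0.02) and several bars are far wider.

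In the E16.5 ventricles the members showed no lean between genotypes. None of 72 passed the adjusted test (limma; 0.00935% of all 10699 genes passed), 38 were higher in F/F and the median log2 difference was 0.02, against 0.0039 over all genes. At an unadjusted p under 0.05, 1 member was counted, where 2.63% of all genes were. The summed level was 21787.1 to 23601.4 FPKM in F/+ and 22137.2 to 22883.6 in F/F. For Ndufa13 and Atp5sl every F/F value lay below every F/+ value, and for no member did all lie above. The share of all genes is not given for this count, so it is not read as a result. The difference between the F effects at E16.5 and at E11.5, tested as an interaction, was called for 0 of 71 members (limma, 0.00875% of all 11423 genes were). At an unadjusted p under 0.05, 7 members were counted, where 493 of the 11423 genes were. The members' median was -0.19 and became 0.18 without haemoglobin, where the median of all genes moved from -0.0050 to 0.32.

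What did vary at E16.5 was a small number of members from library to library within a genotype. Ndufb3 was 54.77, 5.51 and 2.96 FPKM in the F/+ ventricles and 11.73, 0 and 54.8 in F/F. Ndufa3, a small accessory subunit of complex I, was 204.05, 40.16 and 7.12 FPKM in F/+ and 27.39, 4.11 and 209.04 in F/F. Uqcr10, a small subunit of complex III, was 338.08, 156.12 and 80.43 FPKM in F/+ and 133.4, 31.28 and 348.29 in F/F. F/+ replicate 1 and F/F replicate 3 were high for all 3 genes, and F/F replicate 2 and F/+ replicate 3 were low. Ndufa9 (28.38, 16.46 and 6.79 FPKM against 19.92, 3.3 and 32.92), Atp5k (1306.76, 879.69 and 710.92 against 744.22, 402.74 and 1138.02) and Sdha (206.1, 183.61 and 147.95 against 182.13, 98.5 and 226.69) were ordered in the same way at their upper end.

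Of the 59 members with a mean of at least 20 FPKM at E16.5, 3 (Ndufb3, Ndufa3 and Uqcr10) had a range above 2 on the log2 scale over the 6 libraries, as had 29 of all 2862 genes at that level, whose median range was 0.33 and 99th percentile 1.97. With the ordering seen and then counted, F/+ replicate 1 and F/F replicate 3 were the highest pair for 14 of the 59 members (23.7%) and for 16.9% of the 2862 genes. They were the lowest pair for 13 members (22.0%) and again for 16.9% of the genes, among them Atp5g1, Ndufb10, Ndufb11 and Ndufs3, so the 2 libraries were not high for the members as a whole. Of the 8 genes that fell and then rose between stages, Ndufb3, Ndufa3, Uqcr10, Ndufa9 and Uqcrh had log2 ranges of 5.80, 5.36, 3.44, 2.98 and 1.73 over the 6 ventricle libraries. Ndufs4 (0.74 to 3.1 FPKM) had a range of 1.24, close to the 1.19 of Sdha, and Ndufa4 was 15.48 to 24.15 FPKM.

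**Figure D4:**
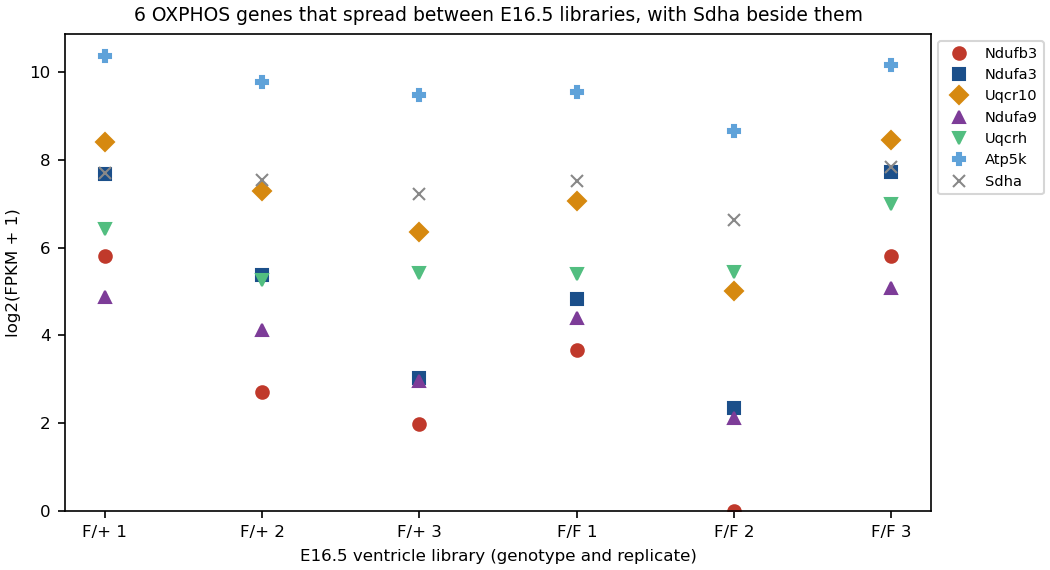
FPKM on a log2(FPKM + 1) scale (y axis) of Ndufb3, Ndufa3, Uqcr10, Ndufa9, Uqcrh, Atp5k and Sdha in the 6 ventricle libraries at E16.5 (x axis), 1 kind of symbol per gene. F/+ replicate 1 and F/F replicate 3 are high and F/F replicate 2 is low for most of them, with a range for Ndufa3 from 4.11 to 209.04 FPKM.

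In the 8-week cardiomyocytes no member passed the test for the distal deletion. None of 74 was called between D/D and the pooled +/+ and D/+ controls (limma; 0% of all 10249 genes tested were called), 39 were higher and the median log2 difference was 0.02, against -0.0079 over all genes. At an unadjusted p under 0.05, 1 member was counted (Ndufaf3, an assembly factor, 0.23 ± 0.11), where 1.71% of all genes were. Against +/+ alone, 0 of 74 were called (limma; 0% of all genes), 0 reached an unadjusted p under 0.05 and the median was -0.02. The values of D/D and controls overlapped for every member in both comparisons. No share of all genes is given for this, so it is not read as a result. The summed level was 37048.7 to 46371.7 FPKM in +/+, 37159.7 and 37334.6 in D/+ and 36721.9 to 45463.8 in D/D.

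The widest differences above 5 FPKM were those of Atp5g2 (-0.86 ± 0.56), Ndufaf1 (-0.37 ± 0.37) and Uqcrc2 (-0.28 ± 0.54) below and of Ndufs5 (1.06 ± 0.81), Ndufa4 (0.52 ± 0.55) and Uqcrb (0.49 ± 0.26) above. Atp5g2 was 11.62, 84.29 and 128.21 FPKM (lowest, median, highest) in +/+, 121.36 and 144.96 in D/+ and 16.07 to 85.42 in D/D, which overlap. Uqcrc2 was 33.76 to 255.87 FPKM in +/+ and 35.99 to 330.69 in D/D, its lowest values being +/+ replicate 5 and D/D replicate 6, the libraries that stood apart. Ndufs5 was listed at 0 in 3 of 5 +/+ and 1 of 6 D/D libraries. The 13 adult libraries fell into a set of 5 (+/+ replicates 1 and 2, D/+ replicate 1, D/D replicates 1 and 2) and a set of 8 that 862 genes separated without overlap. This split was chosen from these same values, so the 862 genes are no test of it. Within the set of 5 (2 D/D, 3 control libraries) the members' median D/D difference was 0.16, with 62 of 74 higher. Within the set of 8 (4 D/D, 4 control libraries) it was -0.07, with 20 higher. No median of all genes is given within either set, so these medians are not read as a result.

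The single cells at E11.5 showed where in the heart these genes were expressed. Cells were clustered and named from fixed markers, so each name means cells like that type, and only 1 member was among the genes used to cluster. The members together took 5.30% of the UMIs of cardiomyocyte-like cells in the +/+ library (476 cells; 95% interval 5.29% to 5.32%) and 5.42% in F/F (777 cells). They took 2.34% and 2.43% in endothelial- and endocardial-like cells (188 and 278 cells), 2.64% and 2.71% in mesenchymal-like cells (457 and 505), 2.28% and 2.40% in epicardial-like cells (147 and 250), and 2.68% and 2.68% in immune-like cells (63 and 60). Cluster 12, with Mybpc1, Sln, Sema3c and Rspo3 among its leading genes, had all 11 cardiomyocyte markers and 5 of 6 outflow and smooth muscle markers at least 2-fold above the other cells and is given by number. It had 6.04% and 5.88% (106 and 155 cells), and cluster 15, with Rgs5 among its leading genes, had 2.69% and 2.97% (80 cells each).

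Among the cardiomyocyte-like clusters, cluster 6, with Nppa among its leading genes, had 5.24% and 5.33%, cluster 9, with Myl2, had 5.42% and 5.47%, and cluster 13, with Shox2, had 4.91% and 5.37%. Erythroid-like cells had 1.18% and 1.27% (956 and 1239 cells), but haemoglobin made up 61.2% and 59.4% of their UMIs. With haemoglobin and mitochondrially encoded genes left out of the total, the members' share was 3.13% and 3.25% in erythroid-like cells, above the 2.38% to 2.83% of the endothelial-, epicardial-, mesenchymal- and immune-like classes, and 5.78% and 5.88% in cardiomyocyte-like cells. The position of erythroid-like cells at the bottom therefore held only with haemoglobin in the total, whereas that of cardiomyocyte-like cells at the top of the named classes held on both scales.

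Gene by gene, 70 of the 74 members were highest in cardiomyocyte-like cells among the named classes in both libraries. With haemoglobin and mitochondrially encoded genes left out of the total, 69 were in each library. Clusters 12 and 15 were not ranked with these classes, and no share of all genes is given for this count. Over endothelial- and endocardial-like cells, cardiomyocyte-like cells had a median ratio of 2.22 in +/+ and 2.19 in F/F, where the median of all genes was 0.94 and 0.93. The core genes followed: Ndufv1 stood at 215.7 and 209.4 CPM (+/+, F/F) in cardiomyocyte-like and 93.0 and 91.4 in endothelial-like cells, and Sdhb at 608.8 and 605.1 CPM against 203.0 and 240.9. Atp5b stood at 2401 and 2357 CPM against 882 and 893. Ndufa4 stood at 1659 and 1785 CPM in cardiomyocyte-like cells and 816 and 859 in endothelial-like cells. Ndufa4l2 was low throughout, with 121 and 221 UMIs in all cells, and reached 14.7 and 37.6 CPM in cluster 12.

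The c subunit genes differed in how far they favoured cardiomyocyte-like cells. Atp5g1 stood at 2086 CPM (+/+) and 2190 CPM (F/F) in cardiomyocyte-like cells and 637 and 658 in endothelial-like cells. Atp5g3 stood at 1573 and 1423 CPM against 367 and 338. Atp5g2, which the bulk table listed at 0 at this stage, stood at 1098 and 1116 CPM against 848 and 882 and was thus the most even of the 3. Of the upstream sequences printed above, that of Atp5g2 held the NRF1 match, that of Atp5g3 the ERR match and that of Atp5g1 none of the 4. Any link between these matches and the levels was not tested.

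**Figure D5:**
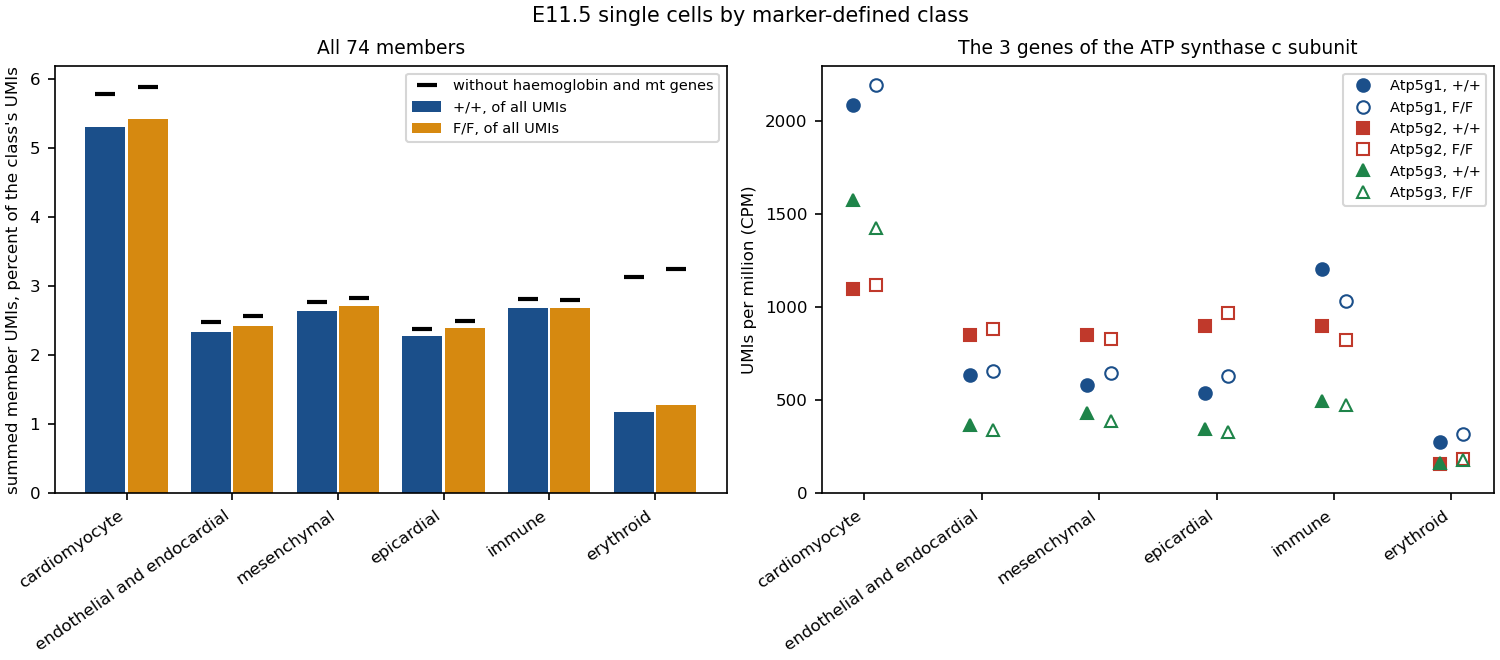
Left: the 74 members' share of UMIs (percent, y axis from 0) in each marker-defined class in the +/+ and F/F libraries, with marks for the share when haemoglobin and mitochondrially encoded genes are left out. Right: CPM (y axis) of Atp5g1, Atp5g2 and Atp5g3 by class; Atp5g2 spans the narrowest range between cardiomyocyte-like and endothelial-like cells.

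Between the single-cell libraries labelled +/+ and F/F there is no test, and the intervals given cover counting error only. Since the UMIs of the deleted gene go against these labels, every direction between the 2 libraries holds only as labelled. In cardiomyocyte-like cells the members' summed CPM in F/F was 1.02 times that in +/+ (95% interval 1.02 to 1.03). The ratio was 1.04 in endothelial- and endocardial-like, 1.03 in mesenchymal-like, 1.05 in epicardial-like, 1.08 in erythroid-like and 1.003 in immune-like cells. In cardiomyocyte-like cells the complexes were at 0.998 (core of complex I; 0.978 to 1.02), 0.99 (complex II; 0.967 to 1.01), 0.999 (F1; 0.988 to 1.01) and 0.994 (c subunit; 0.981 to 1.01). The accessory subunits of complex I stood at 1.04 (1.03 to 1.05), complex III at 1.03 (1.02 to 1.04), the stalk and membrane sector at 1.01 (1.004 to 1.02) and the pair Ndufa4 and Ndufa4l2 at 1.08 (1.05 to 1.10), with intervals above 1. The assembly factors stood at 0.998 (0.952 to 1.05) and the pair Atp5s and Atp5sl at 0.884 (0.766 to 1.02). The 13 mitochondrially encoded messenger RNAs, which code for further subunits of complexes I, III, IV and V, were at 0.95 in these cells.

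No member was past 1.5-fold between the libraries in the 3 classes with at least 200 cells in each. In cardiomyocyte-like cells, 48 of the 72 members with at least 100 UMIs in each library were higher in F/F (39.7% of all 6466 genes were), with a median ratio of 1.03 and a range of 0.77 to 1.14, and 0 were past 1.5-fold higher (0.17% of all genes) or lower (1.13%). In mesenchymal-like cells 54 of 69 were higher (46.6% of all genes), with 0 past 1.5-fold higher (0.2%) or lower (1.65%). In erythroid-like cells 66 of 69 were higher (75.6% of all genes), with 0 past 1.5-fold higher (1.51%) or lower (0.77%). With the labels exchanged, 24 of 72 (60.3% of all genes), 15 of 69 (53.4%) and 3 of 69 (24.4%) would be higher in these 3 classes. The CPM of the summed cardiomyocyte markers in the F/F library was 2.17 times that of +/+ in immune-like, 2.11 in erythroid-like, 1.80 in endothelial- and endocardial-like, 1.35 in epicardial-like and 1.28 in mesenchymal-like cells, and its part in the members' ratios was not tested.

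In cardiomyocyte-like cells the lowest ratios were those of Ndufs1 (143.5 CPM in +/+, 110.1 in F/F, ratio 0.77), Atp5k (0.82) and Uqcrc2 (0.84), and the highest those of Ndufs4 (1.14), Ndufa1 (1.13) and Atp5j (1.11), the coupling factor 6 of the stalk. Atp5k was below 1 in every class: 1920 and 1573 CPM in cardiomyocyte-like (0.82), 729 and 611 in endothelial-like (0.84), 873 and 692 in mesenchymal-like (0.79), 426 and 352 in erythroid-like cells (0.83), and 2287 and 1676 in cluster 12 (0.73). In the bulk hearts of the same stage its F/F values were all above its F/+ values. The 2 comparisons have different controls, +/+ in the single cells and F/+ in bulk, and different samples, and the single-cell labels are in doubt. With these exchanged, the ratio of Atp5k in cardiomyocyte-like cells would be 1.22, on the same side as bulk, so the direction of Atp5k in F/F at E11.5 is unsettled in these data. Ndufa3 showed the same pair of directions, at 0.94 in cardiomyocyte-like and 0.89 in mesenchymal-like cells and higher in bulk F/F. Ndufs1 went the other way: with the labels exchanged its ratio in cardiomyocyte-like cells would be 1.30, while its bulk log2 difference was -0.10. Of the members, 48 of 72 were higher as labelled and 24 with the labels exchanged. In bulk 61 of 71 were higher on the deposited scale, a lean that turned without haemoglobin. These values do not settle the labels.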

How the data were processed

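Bulk RNA-seq libraries (25) were read from the authors' deposited table. The authors made these values from aligned reads, per the submitters' processing notes, and they were taken as FPKM by their size, since no header names the unit. CASAVA, TopHat2 2.0.11 and build mm9 are named in the submitters' processing notes, and the expression program and annotation are not given in the sources used here. Of 24525 lines, 769 repeated a symbol and were averaged by symbol (none of them a member), which left 24025 genes. Values were tested as log2(FPKM + 1) with limma 3.58.1 (R 4.3.3; empirical Bayes with trend), for genes averaging 1 FPKM or more in the fitted libraries, with Benjamini-Hochberg adjustment over all genes tested and a threshold of 0.05. Each genotype comparison was fitted within its stage, and the stage comparisons in 1 fit of the F/+ and +/+ libraries. The depth of the bulk libraries is unknown.

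Single-cell values are the authors' deposited UMI counts (10x Genomics 3′ libraries; Cell Ranger and mm10 per the submitters' processing notes), 38302758 and 51432290 in all. Barcodes under 500 genes were dropped, and 52 and 96 with the highest doublet scores were removed (scrublet marked only 6 by its own threshold), which left 2503 and 3368. Cells were clustered with scanpy 1.11.5 (2000 variable genes, 30 components, 15 neighbours, Leiden resolution 1, igraph 0.11.9; 18 clusters) and named from marker lists. CPM is counts of UMIs summed per class and library, with exact 95% Poisson intervals that cover counting error only. The scripts were tested on simulated data.

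The members, marker lists and pathway lists were chosen with earlier results of these data known. Named whatever their values were the complex I core, complex II, Uqcrc1, Uqcrc2, Uqcrfs1, the F1 and c subunit genes, Ndufa4 and Ndufa4l2, except that 1 member, counted in the sums and counts, is not reported by name here. Others were named by smallest p and by the 3 highest and 3 lowest differences with a mean of at least 5 FPKM, or, in single-cell classes of at least 200 cells in each library, the 3 highest and 3 lowest ratios with at least 100 UMIs in each. Further genes named at E16.5 and among those low in bulk were chosen after their values were seen. Promoters are RefSeq's (GRCm38.p6), with 63 of 74 members matched by symbol or identifier, and shared words of 50 bases were counted over GENCODE M21 transcripts. Alternatives were another pseudocount (0.1), no filter, median-ratio and upper-quartile scaling, a common sum without haemoglobin, Y-linked expression as a covariate, a replicate block and leaving out each replicate. Group sums on the other scales and the exchange of the single-cell labels were added after seeing the data. Replicate numbers did not pair the samples: correlations of same-numbered deviations were -0.04 to 0.08 at E11.5 -0.43 to 0.04 at E16.5 and -0.11 to 0.53 between +/+ and D/D at 8 weeks.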

Additional observations from a re-analysis of the deposited data

Results flagged for a closer look

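A single adult library stood far from the rest of its group (Dixon's criterion at 95%) in 25 of 148 groups of member values, where chance gives about 1 in 20. Over all genes that averaged 1 FPKM or more in the group it was 10.3% in +/+ (81% of these in replicate 5) and 7.7% in D/D, against 24.3% and 9.46% of the members. Of the 25, 18 were in +/+ and all 18 were the library labelled +/+ replicate 5, in which the deleted gene was listed at 0. It was the highest for small accessory subunits of complex I: Ndufa1 (685.53 FPKM), Ndufa3 (2846.24), Ndufa13 (442.37), Ndufb4 (74.01), Ndufb7 (1100.61), Ndufb9 (1562.91), Ndufb10 (1657.42), Ndufb11 (604.9) and Ndufs6 (1851.22). It was also the highest for Ndufs8 (725.16 FPKM), Uqcrb (44.33), Atp5k (2501.49) and Atp5o (1227.87). It was the lowest for Ndufs1 (38.64 FPKM), Ndufa5 (254.2), Ndufa9 (100.81), Ndufaf7 (1.51) and Atp5a1 (1531.22).

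The other 7 were in D/D. Replicate 2 was the highest for Atp5f1 (167.59 FPKM), Atp5k (2247.86), Ndufa3 (1803.9), Ndufaf2 (93.03), Ndufb2 (379.3) and Ndufc1 (821.73), and replicate 6 was the lowest for Ndufaf6 (2.83). No explanation was tested.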

How the results depend on the processing

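The number of members called stayed within 1.5 times its value, and the median differences and single-cell shares and ratios within the spread between replicates or their interval, under 145 settings and moved under 15. They stayed there under all 144 that leave out 1 library, although the medians near 0 at E16.5 and at 8 weeks changed sign under some of these. The median difference F/F minus F/+ at E11.5 was -0.13 without haemoglobin, where all genes moved alike, and that of the interaction 0.18. The median E16.5 minus E11.5 was 1.03 with median-ratio and 1.05 with upper-quartile scaling, and 8 weeks minus E16.5 was 1.16 and 1.04, and 0.31 without haemoglobin. With a replicate block the E11.5 median was 0.23 and 0 members were called, and the block changed no other genotype call. Leaving out 1 library gave 47 to 61 members called for E16.5 minus E11.5 (medians 0.82 to 0.88) and 45 to 62 for 8 weeks minus E16.5 (0.62 to 0.71), and medians of 0.21 to 0.27 at E11.5, -0.01 to 0.04 at E16.5, -0.01 to 0.04 for D/D against control and -0.24 to -0.19 for the interaction. Of the calls, 39 higher and 6 lower held in every alternative for the first stage step and 36 higher and 2 lower for the second. Leaving out the libraries labelled +/+ replicate 5 and D/D replicate 6 together, chosen after seeing the data, changed no 8-week result.

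In the single cells, leaving haemoglobin and mitochondrially encoded genes out of the total gave member shares of 5.78% (+/+) and 5.88% (F/F) in cardiomyocyte-like cells and a ratio of 1.04 in erythroid-like cells. A minimum of 1000 genes per barcode gave an erythroid-like ratio of 1.07. Keeping likely doublets gave 5.22% and 5.33% in cardiomyocyte-like cells and ratios of 1.09 in epicardial-like and 1.04 in immune-like cells. The cause of these moves was not tested beyond the change of total. With 3 libraries a group, and 1 single-cell library a genotype, small differences could not be detected.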
